A study of Mus musculus with 4 samples.

Results

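Border macrophages of the mouse brain were picked out of 4 single-cell RNA sequencing libraries by the genes they carried. A cell barcode counted as a border macrophage when it held UMIs (unique molecular identifiers, 1 for each RNA molecule captured) of at least 3 of the 7 genes Mrc1, Pf4, Cd163, Lyve1, Ms4a7, F13a1 and Cbr2. It also had to hold 0 UMIs of Tmem119 and Sall1, both microglial genes. Its summed Cldn5 and Flt1 (endothelial) and its Acta2 (smooth muscle) had to lie below 20 UMIs per 10000. Barcodes were first kept at 500 genes or more, 1000 UMIs or more and at most 10% mitochondrial UMIs. Of 21714 kept barcodes, 229 passed, or 1.05% (exact 95% interval 0.923 to 1.20). The cells were therefore chosen by measured values, and the levels of the 7 genes in them are a description with no test.

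The libraries came from mouse brains of 2 ages, young and old, and 2 genotype labels, WT Cre and EC-K4KO, with 1 library for each of the 4 groups. WT Cre mice were littermate controls with the Cdh5-Cre driver, whose VE-cadherin promoter is active in endothelial cells. EC-K4KO mice carried the same driver and Klf4-flox alleles, and were meant to lack Klf4 in endothelial cells. The Cre is inducible by tamoxifen, which both genotypes received. Labels gave age only as young or old. The paper used mice of both sexes across its experiments, but the titles of these libraries name no sex. The number of mice behind each library was not given in the sources used here. Suspensions were enriched for endothelial cells, so every other cell type was carried along, and a share below is a share of recovered cells. With 1 library a group no test between groups was made. Intervals below are at 95% and cover counting error only, not the spread between animals, and no p-value was made from cells. Those of ratios come from summed UMIs and leave out the spread between cells too. They are thus too narrow for genes whose UMIs lie in few cells.

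Border macrophages line the outer surfaces of the brain, in the perivascular spaces, the leptomeninges and the choroid plexus. They take up material from blood and cerebrospinal fluid through scavenger and lectin receptors, and some present antigen on MHC class II molecules. They are related to microglia, the macrophages of the brain tissue itself, but stand beside vessels instead of among neurons. Border macrophages rich in Lyve1, a hyaluronan receptor, and those rich in MHC class II are commonly described as states at either end of a range.

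The libraries held 5324 to 8358 barcodes and 30655769 to 88812581 UMIs. They yielded 50 border macrophages from young WT Cre and 82 from young EC-K4KO, then 65 from old WT Cre and 32 from old EC-K4KO. Wherever 4 values follow each other below, they stand in this order. These cells held a median of 6877, 6688.5, 6091 and 5598.5 UMIs, and 333391, 601234, 431949 and 182619 UMIs in sum. Old EC-K4KO was thus the thinnest library, which widens the intervals of its ratios for genes of like level. Between 7 and 42 cell barcodes were shared by any pair of libraries, and no shared barcode was a border macrophage in both. The Y-linked gene Ddx3y was seen in the cells of every library, at 120 to 236 CPM (UMIs per 1000000, after summing all border macrophages of a library).

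The targeted gene went against the labels. In endothelial cells, Klf4 stood at 1604 and 1964 CPM in young and old WT Cre and at 3061 and 3111 in young and old EC-K4KO, so it was higher in both libraries labelled EC-K4KO. Which exons the flox sites remove was not given in the sources used here, so 3' or 5' tags outside them would still be counted and this does not check the deletion. The paper reports a separate check of Klf4 loss, by quantitative PCR and western blot of brain endothelial cells isolated after tamoxifen. Group names below mean the library labelled so, and a difference between WT Cre and EC-K4KO is one between labels. The driver is endothelial, and in the border macrophages themselves Klf4 stood at 435, 501, 259 and 684 CPM.

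Of the 229 cells, 3 held more than 20000 UMIs. Both in young EC-K4KO, with 32639 and 41811 UMIs, held 3 gate genes and 5 and 8 of 8 endothelial markers. The third, in old WT Cre, held 42768 UMIs, 4 gate genes and 1724 UMIs of Ttr, a choroid plexus gene, per 10000. All 3 were among the highest doublet scores (Scrublet), as were 15 of the 229 cells in all. They were kept, since the rule keeps them, and values without them are given where they matter.

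Of the 7 genes that chose the border macrophages, 6 stood far above their level in the other classes drawn here, and F13a1 did not. Mrc1, the mannose receptor, stood at 2337, 2387, 1535 and 1922 CPM, against 5.81 to 52.0 in microglia and 0 in neutrophils. Pf4, a CXC chemokine, stood at 2652, 3862, 3632 and 4014 CPM, and 12.7 to 66.2 in microglia. Ms4a7, a tetraspanning membrane protein of macrophages, stood at 1005 to 1243 CPM. F13a1, the factor XIII A chain, stood at 590 to 920 CPM and was also found in monocytes at 252 to 833 CPM. Cbr2, a carbonyl reductase, stood at 296 to 489 CPM, Cd163, the haemoglobin scavenger receptor, at 219 to 409, and Lyve1 at 102 to 333.

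**Figure D1:**
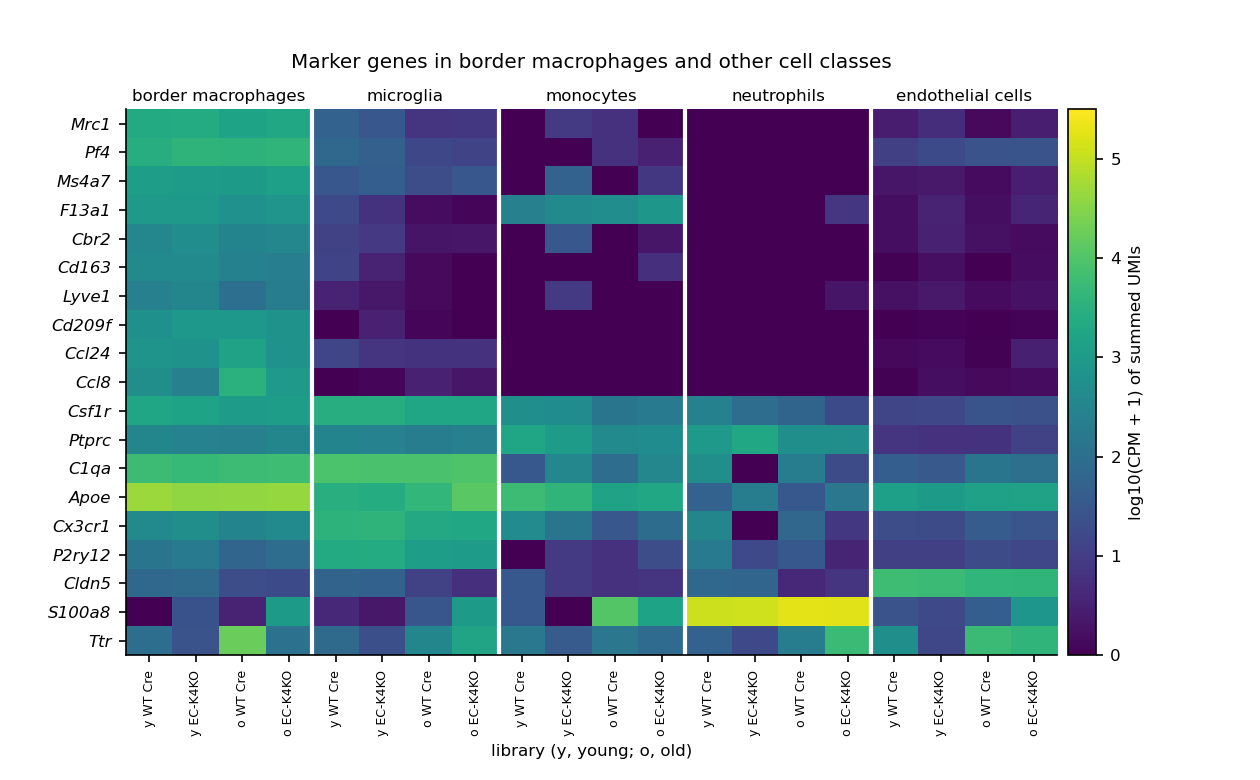
Summed UMIs of 19 genes in border macrophages and in 4 other cell classes, as log10(CPM + 1), with 1 column for each library. The upper 10 rows are bright in the border macrophages, F13a1 is also bright in monocytes, and single bright cells of the lower rows are Ttr in old WT Cre and S100a8 in old EC-K4KO.

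These cells also carried macrophage genes that the rule did not use. Apoe, the lipid carrier apolipoprotein E, was the most abundant of the genes named here, at 47120, 39140, 39700 and 42010 CPM. The C1q subunit gene C1qa stood at 5921, 4932, 5947 and 6264 CPM, with C1qb at 3959 to 4946 and C1qc at 3443 to 3956. Csf1r, the receptor for macrophage colony-stimulating factor, stood at 1104 to 1713 CPM. Microglia held C1qa at 8224 to 9745 and Csf1r at 1683 to 2703 CPM, so these genes mark macrophages of either class.

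The rule drew its line at a count of genes. Cells with exactly 3 of the 7 genes (24 cells) had a mean of 461 CPM of Mrc1 and 497 of Pf4, while 38 barcodes just outside, with exactly 2, had 131 and 245. Cells with all 7 (51 cells) had 3078 and 6254. Cd74, the invariant chain of MHC class II, stood at 17068 CPM in cells with 3, 9775 in barcodes with 2 and 793 in cells with all 7. It ran the other way from 3 genes to 7, but not across the line from 2 to 3. A further 40 barcodes had 3 or more of the genes but also a UMI of Tmem119 or Sall1, with 907 CPM of Mrc1. Cells at the edge were thus higher in Cd74 than cells with all 7. Their lower levels of Mrc1 and Pf4 follow from the count itself, since both are among the genes counted.

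Some RNA of other cells came with the border macrophages. At least 3 of 7 microglial markers were found in 15 of 50, 46 of 82, 14 of 65 and 9 of 32 cells, and the microglial list summed to 906, 1078, 616 and 701 CPM, with 5 of its 7 genes seen. P2ry12, a microglial purine receptor, stood at 135, 175, 62.5 and 93.1 CPM, against 1065 to 2422 CPM in microglia. At least 3 of 6 erythroid markers were found in 8, 32, 1 and 0 cells, and at least 3 of 8 endothelial markers in 8, 17, 3 and 0. Erythroid sums were 516, 620, 155 and 153 CPM, and endothelial sums 309, 481, 137 and 27.4. These lists were highest in young EC-K4KO, and whether this RNA came from doublets, free RNA or the cells was not tested.

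Set beside microglia, border macrophages were a distinct profile in all 4 libraries. Among 1706 genes at a mean of at least 100 CPM in either class, 162 were at least 2-fold higher in border macrophages in 4 of 4 libraries and 128 were at least 2-fold lower. Since the rule used microglial genes and the 7 gate genes to part these classes, this is a description.

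With the gate genes left out, and ranked by the lowest ratio over the 4 libraries, 6 of the 15 genes that stood highest were C-type lectins and 3 chemokines. The other 6 were Folr2, Pla2g2d, Gpx3, Wfdc17, Cd38 and Serpinb8. Cd209f, a C-type lectin of the DC-SIGN family, stood at 567, 845, 852 and 663 CPM in border macrophages and at 0, 2.22, 0.258 and 0 in microglia. Its relatives Cd209a, Cd209g and Cd209b, neighbours of it on chromosome 8 (between 3743397 and 4137707, GRCm38), stood at 354 to 556, 138 to 301 and 72.0 to 274 CPM. These genes are alike in sequence, so how reads were split among them is uncertain. Clec10a and Clec4n, further C-type lectins, stood at 268 to 417 and 342 to 575 CPM. Folr2, the macrophage folate receptor, stood at 136 to 292 CPM. Ccl8, a monocyte attractant, and Ccl24, an eosinophil attractant, reached at most 2.20 and 12.9 CPM in microglia, while border macrophages held 250 to 3202 and 641 to 1442.

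At the other end were genes of microglia. Sparc, a matrix protein, stood at 33.0, 84.8, 37.0 and 0 CPM in border macrophages and at 2023 to 2700 in microglia. Klk8, a serine protease, was at 0 in all 229 cells and at 158 to 233 CPM in microglia. Slc2a5, the fructose transporter, Adgrg1, an adhesion receptor, and Lag3, an MHC class II ligand, stood at 0 to 4.99 CPM in border macrophages and 152 to 337 CPM in microglia.

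Across fixed gene lists, the scavenger and lectin receptors set the classes furthest apart. Their median log2 ratio over microglia was 5.17 to 6.02, and 14 of 16 genes were higher in all 4 libraries. MHC class II genes had medians of 2.70 to 4.50 (5 of 7 higher in all 4), interferon response genes 1.94 to 3.27 (7 of 7) and haem and iron genes 1.15 to 1.30 (11 of 12). Medians of the Fc receptor and complement list, of the lysosome list and of the list of macrophage factors and growth receptors stayed between -0.13 and 0.11.

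Border macrophages made up 1.07% (interval 0.796 to 1.41) and 1.12% (0.864 to 1.42) of kept barcodes in young and old WT Cre, and 1.18% (0.941 to 1.46) and 0.745% (0.510 to 1.05) in young and old EC-K4KO. These intervals overlap. Among gated immune cells the share was 11.4%, 10.3%, 4.28% and 2.64%, so both old libraries lay below both young ones. The immune cells counted were 439, 796, 1520 and 1214, most of them microglia (345, 611, 1322 and 744). How far the sort set these proportions was not tested.

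MHC class II genes were unevenly spread among the cells. Expression of 4 class II genes (Cd74, H2-Aa, H2-Ab1 and H2-Eb1) was summed in each cell. The median was 0, 0, 1.56 and 1.75 UMIs per 10000, while the highest cells reached 863, 956, 824 and 815. No UMI of the 4 genes was seen in 117 of the 229 cells, and 57 held at least 50 per 10000. Most cells thus had next to none, and a minority had many.

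Lyve1 was set beside MHC class II in single cells, as a description, since Lyve1 helped choose the cells and class II was highest in cells with few gate genes. Of 80 cells with a Lyve1 UMI, 7 held at least 50 class II UMIs per 10000. They numbered 0 of 17, 1 of 39, 4 of 14 and 2 of 10 by library. Of 149 cells without one, 50 did, or 10 of 33, 15 of 43, 18 of 51 and 7 of 22.  Depth differed between cells, so each was also thinned to 1000 UMIs. Lyve1 was then seen in 14.0%, 23.2%, 9.23% and 21.9% of cells, against 34.0%, 47.6%, 21.5% and 31.3% unthinned. In microglia, which should lack it and held medians of 4954 to 5782 UMIs, 0% to 0.491% of cells had a Lyve1 UMI. At the same thinning 20%, 18.3%, 33.8% and 31.3% of cells held at least 50 class II UMIs per 10000. They numbered 0 of 7, 0 of 19, 1 of 6 and 0 of 7 among cells with Lyve1 and 10 of 43, 15 of 63, 21 of 59 and 10 of 25 among those without. In the old libraries the sides thus lay further apart with thinning than without it, on few cells with Lyve1.

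**Figure D2:**
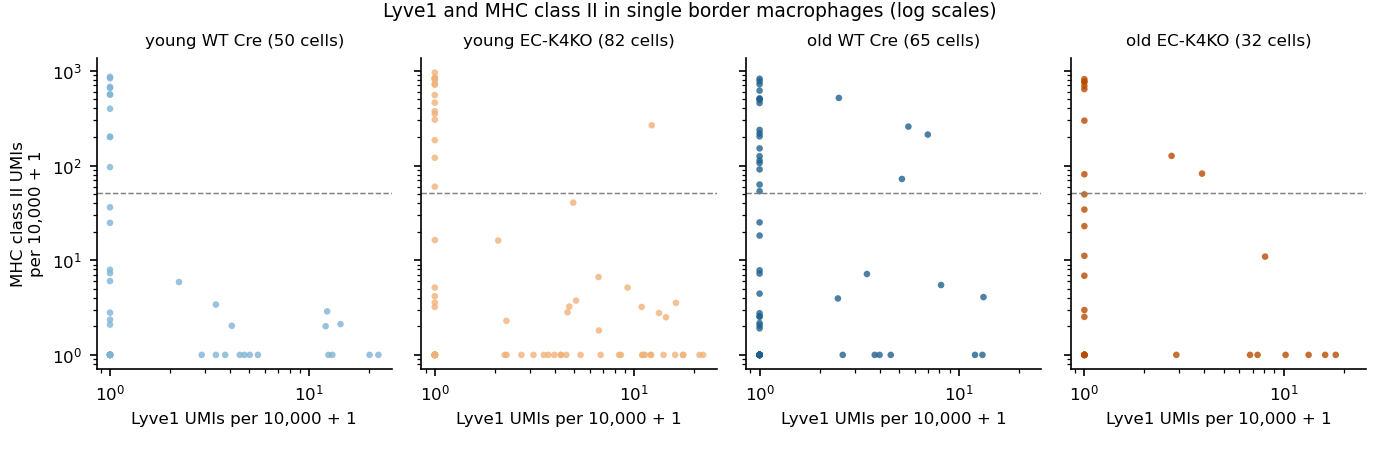
Each point is 1 border macrophage, with its Lyve1 UMIs per 10000 (plus 1, log scale) across and its summed UMIs of 4 MHC class II genes per 10000 (plus 1, log scale) upward, in 1 panel for each library. The dashed line marks 50 UMIs per 10000, and 0 of 17, 1 of 39, 4 of 14 and 2 of 10 cells with a Lyve1 UMI lie above it.

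Cells high in class II differed from the others in the same direction in every library for several genes. Cells of each side were summed within a library, so these values come from the cells that defined the split and have no test. Cd52, a surface glycoprotein of leukocytes, stood at 1176, 937, 1076 and 1072 CPM on the high side and 102, 70.7, 231 and 314 on the low side. Mpeg1, the pore-forming perforin-2, stood at 493, 483, 327 and 411 CPM against 123, 126, 140 and 131. Cxcl16, a membrane-bound chemokine, stood at 437, 625, 586 and 338 CPM against 143, 186, 147 and 166. Mgl2, a galactose-binding lectin, stood at 303, 439, 320 and 367 against 131, 201, 73.7 and 113 CPM. Ccr2, a chemokine receptor of monocytes, stood at 303, 231, 0 and 132 CPM on the high side and 4.10, 2.14, 17.5 and 0 on the low side, so it was not higher in old WT Cre. Over all border macrophages the dendritic list summed to 378, 406, 570 and 504 CPM, of which Cd209a made up 354 to 556, and no cell held more than 2 of its 8 markers. The monocyte list summed to 108, 93.1, 208 and 219 CPM, with at least 3 of 7 markers in 0, 0, 1 and 1 cells. The part of such cells in the split was not tested.

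Mrc1, which helped choose the cells, and Stab1 were lower on the high side. So were Cd163, F13a1, Cbr2 and Lyve1, which also helped choose them, and Folr2 and Apoe, in every library. F13a1 stood at 291, 134, 463 and 382 CPM on the high side, against 1147, 1146, 656 and 943. The median cell high in class II held 4.87, 12.6, 10.5 and 10.6 Mrc1 UMIs per 10000, against 26.2, 28.9, 18.7 and 18.3 in the rest. Stab1, the scavenger receptor stabilin-1, had medians of 3.22, 4.68, 0 and 3.52 against 12.5, 13.5, 6.02 and 5.79. Pf4 did not keep 1 direction, with log2 ratios of high over low of -1.83, -1.98, 0.25 and 0.16. Ms4a7 did not either, with -0.83, -0.77, 0.15 and -0.24.

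The first question was what differed between old and young. Between old and young WT Cre, 89 of 2885 genes at a mean of at least 50 CPM were higher past 2-fold in old (3.08%) and 195 lower (6.76%). Past 2-fold means a log2 ratio of at least 1 in size with an interval that leaves out 0. Between old and young EC-K4KO, 62 were higher (2.15%) and 117 lower (4.06%). The comparisons share no library. Chemokine genes were among those higher in both.

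Chemokines draw leukocytes to a tissue. Of 14 chemokine genes at 50 CPM, 7 were higher past 2-fold in old WT Cre over young WT Cre and 9 in old EC-K4KO over young EC-K4KO, and 0 were lower in either, where all genes gave 3.08% and 2.15% higher. The list's median log2 ratio was 0.97 and 1.61, against -0.13 and -0.05 over all genes. Genes of the list made up 1.46%, 1.25%, 3.19% and 3.34% of all UMIs of border macrophages.

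Ccl4, an attractant of monocytes and T cells, stood at 1227, 916, 4290 and 7392 CPM. Both old libraries lay above both young ones, with log2 ratios of old over young of 1.80 (1.65 to 1.96) in WT Cre and 3.01 (2.87 to 3.16) in EC-K4KO. It was seen in 15 of 50, 36 of 82, 39 of 65 and 23 of 32 cells, and 1 cell of old EC-K4KO held 38.0% of its UMIs there.

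Ccl3, a close relative of Ccl4, stood at 1947, 1542, 3602 and 5865 CPM, with 1.93 (1.80 to 2.06) between the EC-K4KO libraries. Ccl7, a monocyte attractant that binds CCR2, stood at 1902, 1918, 4600 and 5662 CPM, with 1.27 (1.15 to 1.41) in WT Cre and 1.56 (1.44 to 1.68) in EC-K4KO. Ccl12, a further CCR2 ligand, stood at 579, 479, 1074 and 2470 CPM. For all 4 genes both old libraries lay above both young ones. For Ccl3, Ccl4 and Ccl7 each of these past-2-fold ratios kept its size class in all 10 alternatives tried.

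Ccl8 stood at 510, 250, 3202 and 882 CPM, in 15, 18, 33 and 17 cells. The log2 ratio was 2.65 (2.42 to 2.89) in WT Cre and 1.82 (1.49 to 2.15) in EC-K4KO. A few cells carried much of it, since 1 cell held 58.8%, 38.0%, 34.2% and 42.9% of its UMIs. Cxcl13, a B-cell attractant, was at 0 in both young libraries and at 326 and 93.1 CPM in the old ones, in 4 and 2 cells. Against a floor of 3 UMIs a library, that is at least 36.3-fold higher in WT Cre and at least 18.7-fold higher in EC-K4KO, and it rests on those few cells. When cells also had to hold 0 UMIs of P2ry12 and Siglech, Cxcl13 was at 0 in both WT Cre libraries.

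The difference was spread over many cells. The median cell held 26, 59.7, 188 and 170 chemokine UMIs per 10000, and cells with at least 100 per 10000 numbered 16 of 50 (32.0%), 31 of 82 (37.8%), 42 of 65 (64.6%) and 21 of 32 (65.6%). The 5 richest cells still held 55.0%, 28.0%, 34.0% and 62.7% of each library's chemokine UMIs. In old EC-K4KO 1 cell held 26.2%.

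**Figure D3:**
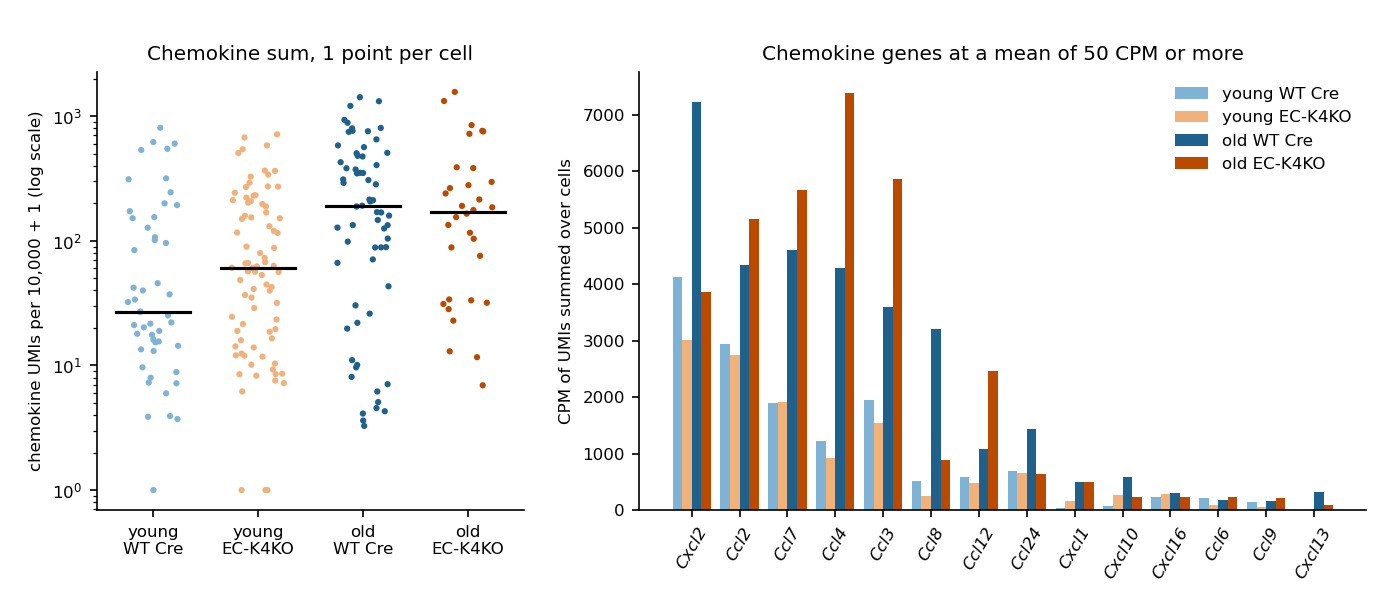
Left, chemokine UMIs per 10000 plus 1 (log scale) in each border macrophage, with a bar at the median of each library (26, 59.7, 188 and 170 UMIs per 10000 before adding 1). Right, CPM of the 14 chemokine genes at a mean of at least 50 CPM in the 4 libraries, where Ccl3, Ccl4, Ccl7 and Ccl12 stand higher in both old libraries than in both young ones.

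Chemokine genes lie in clusters, so members of the list are not independent of each other. Ccl2, Ccl7, Ccl12 and Ccl8 lie on chromosome 11 between 82035571 and 82116799 (GRCm38), and Ccl9, Ccl6, Ccl3 and Ccl4, with Wfdc17, between 83572919 and 83706268. Microglia of the same libraries held Ccl4 at 3688, 3362, 10770 and 10082 CPM, and the list's medians in them were 1.13 in WT Cre and 1.25 in EC-K4KO. The age difference in chemokines was therefore seen in both macrophage classes. Ccl7 in microglia stood at 4.14, 6.16, 107 and 71.6 CPM. Immediate early genes, which tissue dissociation can induce, had medians of -0.39 and -0.19 with age in border macrophages. Of 19, 3 were lower past 2-fold in each comparison and 0 higher, where all genes gave 6.76% and 4.06% lower. In sum over the list, the median cell held 104, 191, 156 and 174 UMIs per 10000. Their part in the chemokine difference was not tested.

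In all, 13 genes were higher past 2-fold in both age comparisons, 5 of them chemokines, or 14.6% of the 89 and 21% of the 62. Among these 5, Cxcl1 and Cxcl13 had 97.8% and 94.1% of their UMIs in 1 cell of old EC-K4KO. Cxcl1, a neutrophil attractant, stood at 27, 156, 505 and 493 CPM in 5, 7, 10 and 3 cells, and its ratio between the EC-K4KO libraries turned from 1.66 to -3.46 with at least 1000 genes, 2000 UMIs and at most 5% mitochondrial UMIs. Wfdc17, a secreted protease-inhibitor domain protein, stood at 996, 1314, 2037 and 2962 CPM, with log2 ratios of 1.03 (0.85 to 1.22) and 1.17 (1.01 to 1.33). Cd209b stood at 72.0, 111, 162 and 274 CPM, with 1.15 (0.48 to 1.90) and 1.30 (0.74 to 1.85). Cd209d stood at 9, 44.9, 71.8 and 142 CPM, while Cd209g, at 138, 185, 299 and 301 CPM, passed in WT Cre and not in EC-K4KO. Gdf15, a stress-induced cytokine, stood at 162, 54.9, 382 and 312 CPM, but 1 cell held 90.7% of it in young WT Cre and 64.9% in old EC-K4KO.

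Between the WT Cre libraries alone, the adhesion molecule Vcam1 stood at 300 CPM in young and 954 in old, with a log2 ratio of 1.66 (1.35 to 2.0), and at 487 and 821 CPM in young and old EC-K4KO. Ifitm3, an interferon-induced membrane protein, stood at 744, 589, 1658 and 1079 CPM. Both were past 2-fold in WT Cre and below it in EC-K4KO, and the difference between these ratios was not tested.

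Fewer interferon response genes passed. Of 7 at 50 CPM, Isg15 and Ifitm3 were higher past 2-fold in old WT Cre, and Ifi27l2a and Oasl2 in old EC-K4KO, where all genes gave 3.08% and 2.15%. The medians were 0.53 and 0.61, and in microglia 0.95 and 1.76. Ifi27l2a, an interferon-induced mitochondrial protein, stood at 549, 240, 993 and 931 CPM.

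Stab1, Maf and Slc40a1 were lower past 2-fold in old WT Cre than in young WT Cre. Stab1 stood at 1413, 1332, 553 and 767 CPM, with a log2 ratio of -1.35 (-1.58 to -1.12) in WT Cre, and its cell medians were 11, 12.3, 4.54 and 5.73 per 10000. Maf, a transcription factor of resident macrophages, stood at 1923, 1761, 961 and 1150 CPM, with -1.0 (-1.18 to -0.82), and fell short of 2-fold in 8 of 10 alternatives. Slc40a1, the iron exporter ferroportin, stood at 252, 206, 113 and 87.6 CPM, with -1.15 (-1.69 to -0.63) in WT Cre and -1.20 (-2.09 to -0.48) in EC-K4KO. The ratio in WT Cre fell short of 2-fold in 5 of 10 alternatives, at -0.99 without the 3 cells over 20000 UMIs and -0.91 with TMM. For all 3 genes both old libraries lay below both young ones.

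Colec12, a scavenger receptor with a collagen domain, stood at 114, 130, 50.9 and 65.7 CPM. Ednrb, the endothelin B receptor, stood at 96.0, 110, 30.1 and 21.9 CPM, and Itga6, the laminin-binding integrin alpha 6, at 87.0, 69.9, 32.4 and 27.4. Ednrb, Itga6 and Slc40a1 were among 28 genes lower past 2-fold in both age comparisons, or 14.4% of the 195 in WT Cre and 23.9% of the 117 in EC-K4KO. The haemoglobin genes Hba-a1 and Hbb-bs and the pericyte gene Rgs5 were also among the 28. In the same cells the endothelial markers summed to 309, 481, 137 and 27.4 CPM and the erythroid markers to 516, 620, 155 and 153, both lower in the old libraries, and their part in these differences was not tested. Lyve1 itself stood at 252, 333, 102 and 208 CPM, but it helped choose the cells.

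Rpl10, a ribosomal protein gene, stood at 972, 817, 375 and 296 CPM, with -1.37 (-1.66 to -1.10) and -1.45 (-1.90 to -1.06). In microglia it stood at 950, 872, 441 and 362 CPM. It has near-identical copies in the genome, so the assignment of its reads is uncertain. Egr1, an immediate early factor, stood at 453, 481, 183 and 104 CPM in border macrophages, with -1.30 (-1.72 to -0.91) and -2.17 (-2.96 to -1.54). Haemoglobin RNA, which these cells do not make, was also lower, with Hbb-bs at 294, 356, 85.7 and 110 CPM.

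How the libraries were scaled moved the balance of these counts. With TMM or DESeq2 scaling, 170 genes were higher and 93 lower in old WT Cre over young WT Cre. The share of higher genes was thus 64.6% in place of 31.3%. Between the EC-K4KO libraries, 90 were higher and 84 lower with DESeq2 scaling, or 51.7% higher in place of 34.6%. The chemokine median in WT Cre was 1.21 with either scaling, in place of 0.97. The median of all genes moved from -0.13 to 0.11 (TMM) and 0.12 (DESeq2) in WT Cre.

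The other question was what differed with the genotype label. In the young, 70 of 2885 genes were higher past 2-fold in EC-K4KO than in WT Cre (2.43%) and 23 lower (0.797%). In the old, 108 were higher (3.74%) and 59 lower (2.05%), and with TMM scaling 58 were higher and 96 lower, with DESeq2 scaling 62 and 91. In the young 53 were higher and 34 lower without the highest doublet scores. Of these genes, 8 were higher at both ages, which is 11.4% of the 70 and 7.41% of the 108, and 4 lower at both, which is 17.4% of the 23 and 6.78% of the 59. The comparisons share no library.

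Among the 4 genes lower past 2-fold at both ages, Bst2 was seen in the most cells. It encodes tetherin, an interferon-inducible membrane protein that holds budding virus at the cell surface. It stood at 849 and 1229 CPM in young and old WT Cre and at 213 and 203 in young and old EC-K4KO. The log2 ratio of EC-K4KO over WT Cre was -1.99 (-2.31 to -1.69) for young mice, and for old mice it was -2.58 (-3.12 to -2.12). Both libraries labelled EC-K4KO lay well below both labelled WT Cre.

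The difference was not carried by a few cells. Bst2 was seen in 45 of 50, 54 of 82, 62 of 65 and 19 of 32 cells, and after thinning to 1000 UMIs in 46.0%, 17.1%, 64.6% and 12.5%. The median cell held 7.75, 1.37, 9.74 and 1.55 UMIs per 10000, and the highest cell of each library held 6.71% to 13.5% of its Bst2 UMIs. Over 10 alternatives the young ratio ranged from -2.02 to -1.87 and the old ratio from -2.73 to -2.21.

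Other cell classes differed in Bst2 to unlike degrees. Microglia held 252, 80.0, 315 and 169 CPM, with log2 ratios of EC-K4KO over WT Cre of -1.66 in the young and -0.90 in the old. Endothelial cells, the class the driver targets, held 227, 199, 233 and 204 CPM. Astrocytes held 7.80, 8.33, 277 and 212 CPM. Ependymal and choroid plexus cells were the highest of the other classes, at 1015 CPM with all libraries pooled, and numbered 14, 7, 184 and 63. Neutrophils, in which Bst2 was lowest among the leukocytes, held 0 to 41.8 CPM.

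**Figure D4:**
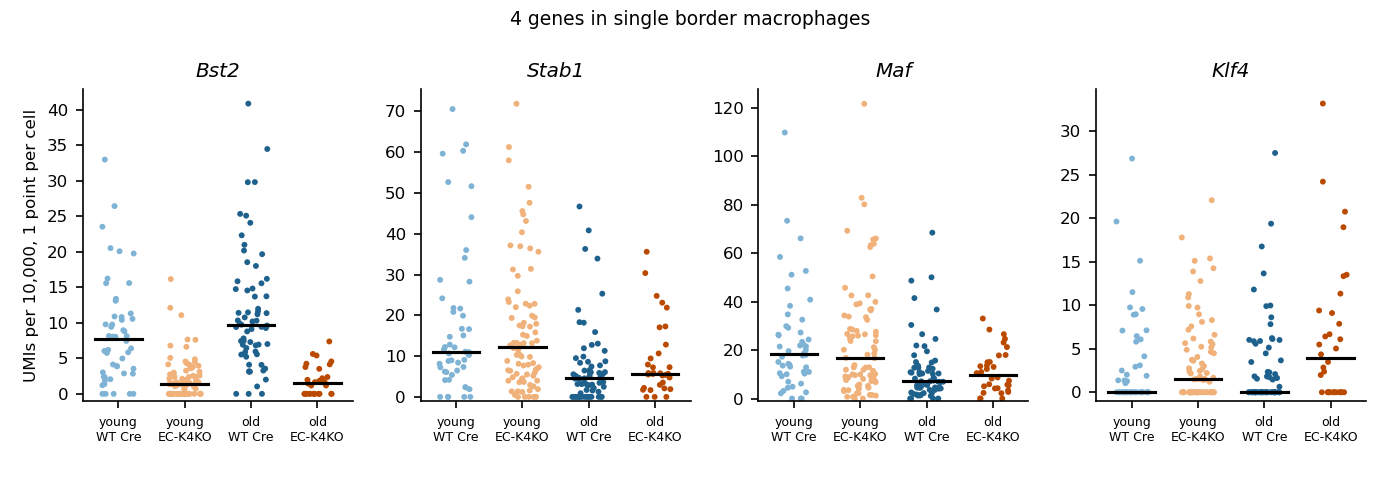
UMIs per 10000 of Bst2, Stab1, Maf and Klf4 in each border macrophage of the 4 libraries, with a bar at the median. Bst2 medians are 7.75, 1.37, 9.74 and 1.55, low in both EC-K4KO libraries, while Stab1 (11, 12.3, 4.54 and 5.73) and Maf (18.3, 16.7, 7.41 and 9.6) are low in both old libraries.

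The rest of the interferon list did not follow Bst2 at both ages. In the young, Ifi27l2a was also lower past 2-fold, with a log2 ratio of -1.20 (-1.52 to -0.87). In the old, Bst2 was the only 1 of 7 past 2-fold. These counts were 2 and 1 of 7 lower, where all genes gave 0.797% and 2.05%. The list's medians were -0.34 and -0.25, and in microglia -1.66 and -0.33.

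Klf2 and Klf4, related zinc finger factors, stood among the genes higher in EC-K4KO. Klf2 stood at 462, 1074, 361 and 832 CPM in border macrophages, so that the log2 ratio was 1.21 (0.96 to 1.48) for young mice, and for old mice also 1.21 (0.87 to 1.54). Klf4 differed past 2-fold in the old, at 1.40 (1.02 to 1.78), and by 0.20 in the young, or -0.42 without the 3 cells over 20000 UMIs. Endothelial cells held 3971, 6148, 4217 and 5108 CPM of Klf2, far more than the border macrophages. The endothelial markers summed to 309, 481, 137 and 27.4 CPM in the border macrophages, and their part in these differences was not tested.

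Jun and Fos, which form the AP-1 factor, stood lowest in old WT Cre. Jun stood at 1593, 1783, 563 and 1593 CPM, with 1.5 (1.25 to 1.75) for old EC-K4KO over old WT Cre. Fos stood at 1122, 1515, 785 and 1659 CPM, with 1.08 (0.85 to 1.31). With the TMM or DESeq2 factors of these libraries the ratio of Fos falls short of 2-fold. In microglia of the same pair, Jun and Fos gave -0.43 and -0.56. Of 19 immediate early genes, 4 were higher past 2-fold and 0 lower in the old, with a median of 0.41, and 2 and 0 in the young, with 0.30, where all genes gave 3.74% and 2.43% higher.

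Rgs1, a regulator of G-protein signalling, stood at 9, 135, 50.9 and 230 CPM but in only 2, 13, 7 and 7 cells. Thbd, thrombomodulin, an anticoagulant receptor also made by endothelium, stood at 57.0, 211, 9.26 and 110 CPM in 4, 21, 3 and 5 cells. Both were higher past 2-fold at both ages on few cells. Msl1 and Prps2, a chromatin factor subunit and an enzyme of nucleotide synthesis, were spread over more cells, at 51.0, 108, 60.2 and 120 CPM and 39.0, 84.8, 32.4 and 76.7 CPM. Fabp5, a fatty acid binding protein, stood at 57.0, 156, 64.8 and 148 CPM, with 59.6% of it in 1 cell of young EC-K4KO. With at least 4 gate genes its log2 ratio in the young turned to -1.66.

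Ccl8 was the chemokine lower past 2-fold in EC-K4KO at both ages, by log2 ratios of -1.03 (-1.36 to -0.71) and -1.86 (-2.10 to -1.62). Without the 3 cells over 20000 UMIs the ratio was -0.84 in the young, below 2-fold, and it turned to 4.37 when cells also had to hold 0 UMIs of P2ry12 and Siglech. The young difference thus depends on which cells are counted, and 1 cell held 58.8% of the Ccl8 of young WT Cre. Ccl24 stood at 699, 654, 1442 and 641 CPM, lower past 2-fold in the old at -1.17 (-1.47 to -0.88). The chemokine list as a whole had medians of -0.31 and 0.11 with the label, over members that went both ways. Of the 14 genes, 2 were higher and 3 lower past 2-fold in the young (Cxcl1 and Cxcl10 against Ccl6, Ccl8 and Ccl9), where all genes gave 2.43% and 0.797%. In the old, Ccl12 was higher and Ccl8, Ccl24, Cxcl10 and Cxcl13 were lower, or 1 and 4 of 14, where all genes gave 3.74% and 2.05%.

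Retnla, a secreted protein of alternatively activated macrophages, stood at 1938 CPM in young WT Cre and 0 in the other libraries. It was seen in 2 cells, and 1 of them held 87.9%.

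Over all 2885 genes, 3.22% and 5.79% passed 2-fold in either direction with the label in the young and old, and 9.84% and 6.2% with age in WT Cre and EC-K4KO, so a short list holds few or no such genes at these shares. None of 17 lysosome genes passed 2-fold in any of the 4 comparisons, with medians of -0.23 to 0.06. Ctsb, the protease cathepsin B, stood at 3221, 3624, 2750 and 3083 CPM, and Ctsd, cathepsin D, at 1641, 1693, 1850 and 1769. Of 15 Fc receptor and complement genes 0 or 1 passed in each comparison, the 1 being Cfp, properdin, at 180, 73.2, 123 and 175 CPM. None of 7 MHC class II genes passed, and their medians were -0.21 and 0.42 with the label and -0.05 and 0.42 with age. Cd74 stood at 6416, 5417, 5385 and 7184 CPM.

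Of 12 haem and iron genes, 0 passed with the label at either age and 1 and 4 with age, and the ferritin chains Fth1 and Ftl1 stood at 10740 to 14590 and 6303 to 7772 CPM. Of 16 scavenger and lectin receptors, 3, 1, 4 and 3 passed in either direction in the young and old label comparisons and the WT Cre and EC-K4KO age comparisons, against 3.22%, 5.79%, 9.84% and 6.2% of all genes. Msr1, scavenger receptor A, was the 1 that passed with the label in the old, at 84.0, 143, 57.9 and 164 CPM. Of 13 lipid genes, 2, 2, 1 and 1 passed. Of 18 macrophage factors and growth receptors 0 passed with the label, and 5 passed in WT Cre with age, where all genes gave 9.84%. Among the 5 was Csf2ra, a chain of the GM-CSF receptor, at 117, 102, 57.9 and 49.3 CPM.

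Cytokines were mixed. Il1b, interleukin 1 beta, stood at 1071, 1369, 1660 and 1144 CPM and passed in no comparison. Tnf stood at 195, 135, 345 and 482 CPM, with 1.84 (1.39 to 2.29) for old over young EC-K4KO, and 1 cell of old EC-K4KO held 54.5% of it. Il1a stood at 60, 110, 269 and 93.1 CPM, higher past 2-fold in old WT Cre than in young WT Cre and lower in old EC-K4KO than in old WT Cre. Of 8 T cell and antigen co-signal genes, Icam1 passed in the young with the label and Vcam1 in WT Cre with age. For Icam1 the log2 ratio was 1.03, or 0.95 without the 3 cells over 20000 UMIs and -0.11 when cells also had to hold 0 UMIs of P2ry12 and Siglech. Of 7 matrix and proteolysis genes, Thbs1 and Adam10 passed, Thbs1 in at most 8 cells of a library, and Adam10 at -0.96 no longer passed without the 3 cells over 20000 UMIs. Of 4 cell cycle genes, Stmn1, a microtubule regulator, was higher in both old libraries, at 42.0, 36.6, 113 and 208 CPM, and in the old ones 1 cell held 44.9% and 57.9% of it.

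**Figure D5:**
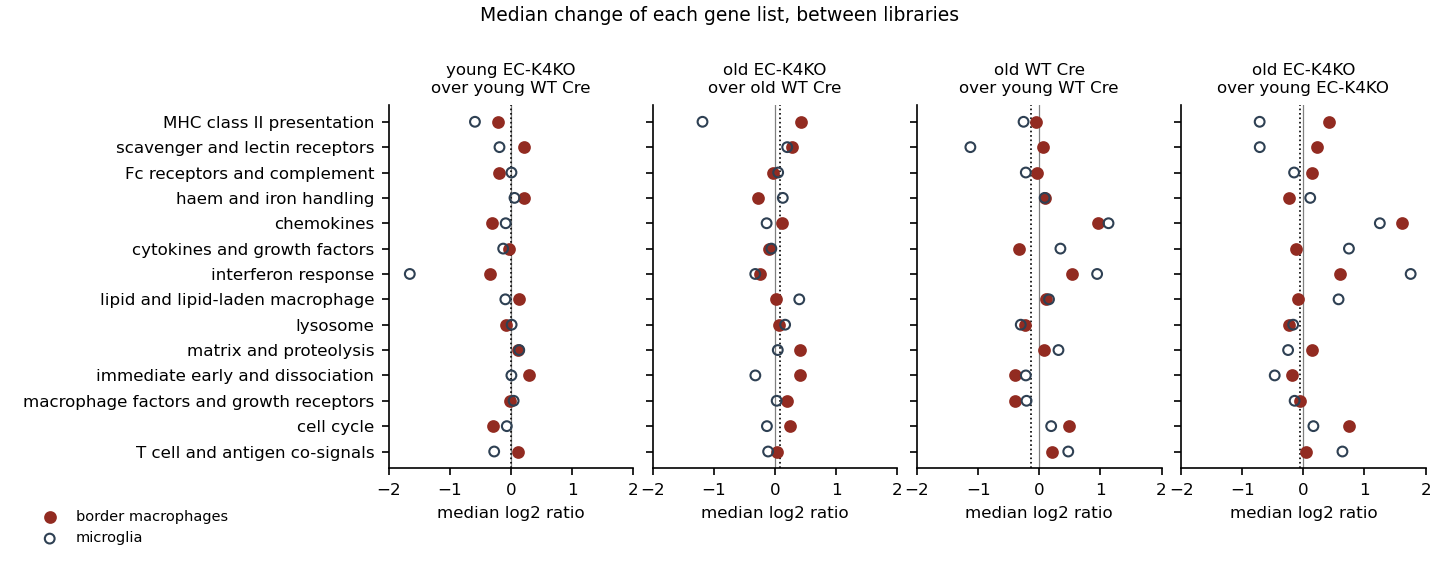
Median log2 ratio of each of 14 gene lists in the 4 comparisons, filled for border macrophages and open for microglia, with a dotted line at the median of all 2885 genes in border macrophages. The chemokine list stands at 0.97 and 1.61 with age and at -0.31 and 0.11 with the genotype label.

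Single cells decided some large ratios. Ttr, made by choroid plexus, stood at 96.0, 24.9, 17410 and 115 CPM, and at 378 in old WT Cre without the cell of 42768 UMIs. The log2 ratio of old over young WT Cre was 1.96 without that cell. Ttr was seen in 25, 10, 56 and 17 cells, with medians of 0.377, 0, 3.44 and 1.0 UMIs per 10000, so it was also found at low levels in most old cells. Wfdc2 was at 0 in 3 libraries and at 641 CPM in old WT Cre, all of it in that cell. S100a8, a neutrophil gene, stood at 0, 23.3, 2.32 and 969 CPM. In old EC-K4KO 1 cell held 91.0% of all UMIs of neutrophil markers, in the library with the most neutrophils, at 288 against 8, 15 and 40.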

How the data were processed

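The deposited files hold raw counts, 1 matrix a library, of UMIs by gene and barcode. Per the file headers the counts were made by Cell Ranger 6.0.2, and they show no later normalization by the authors. Submitters' processing notes also name mm10, GRCm38 and Seurat. The annotation release was not given in the sources used here. Gene positions come from a GRCm38 annotation, and all 38 genes looked up had the identifier of the files.

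Cells were selected by the rule stated in the report, and microglia and other classes as kept barcodes with at least 3 markers of 1 class list, more than of any other. UMIs were summed over the border macrophages of each library and scaled to 1000000 (CPM). Log2 ratios were taken after adding 0.5 UMIs to each sum, with exact conditional binomial intervals at 95%, for genes at a mean of at least 50 CPM. Shares carry exact Clopper-Pearson intervals. Cells were thinned to 1000 UMIs for shares. Each group has 1 library, so no test was run. The scripts were tested on simulated data, drawn without spread between cells.

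The members and lists were chosen with earlier results of these data known. Genes were named by a rule: the 7 gate genes and Klf4; in each comparison the 5 highest and 5 lowest by the interval bound nearest 0 that were on no marker list and stood at no less than 0.2 of their level in any other class; the 15 highest and 5 lowest beside microglia, gate genes left out; and up to 4 most abundant and 2 most variable genes of each of 14 role lists. Other genes named (Ttr, S100a8, Wfdc2, Klf2, Fos, Hbb-bs, Hba-a1, Rgs5, Ddx3y, P2ry12, Ednrb, Itga6, Colec12, Csf2ra, Msr1, Msl1, Prps2, and those of the MHC class II and Lyve1 splits) were chosen after their values were seen. Some genes that the rule takes are not reported here. Doublet scores came from Scrublet (Scanpy 1.11.5), and no cell was removed for them in the main values. Alternatives were TMM (edgeR 4.0.16) and DESeq2 1.42.0 size factors, other filters on cells and genes, another pseudocount, cells weighted equally, a stricter gate and, chosen after seeing the data, leaving out the 3 cells over 20000 UMIs. Calculations used Python 3.11.15, NumPy 2.4.6, SciPy 1.17.1, pandas 2.3.3 and R 4.3.3.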

Additional observations from a re-analysis of the deposited data

Results flagged for a closer look

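Cxcl10, an interferon-inducible T-cell attractant, differed with the genotype label in opposite directions at the 2 ages. It stood at 66 and 593 CPM in young and old WT Cre and at 271 and 224 in young and old EC-K4KO. The log2 ratio of EC-K4KO over WT Cre was thus 2.01 (1.39 to 2.75) among young and -1.39 (-1.91 to -0.92) among old libraries. In the order young WT Cre, young EC-K4KO, then both old libraries, it was seen in 4, 8, 14 and 6 cells, and 1 cell held 28.1% to 40.9% of its UMIs in each library. With 1 library a group the difference between these ratios was not tested. In microglia of the same libraries Cxcl10 stood at 295, 334, 802 and 1050 CPM, with ratios of 0.18 among young and 0.39 among old libraries.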

How the results depend on the processing

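With 1 library a group, animals, sort and library cannot be told apart from age or label, and the 32 cells of old EC-K4KO limit every ratio that uses them. No paired analysis was possible because the groups compared have 1 library each and so share fewer than 2 replicate numbers. In all, 574 of 616 list medians and 852 of 956 ratios of named genes kept their direction and size class, while 94 of those ratios fell short of 2-fold. Where both libraries held at most 3 UMIs of a gene no ratio was taken, as for Wfdc2 without the highest doublet scores or without the 3 cells over 20000 UMIs. None was taken for Cxcl13 between the WT Cre libraries when P2ry12 and Siglech also had to be at 0 UMIs, since both then held 0. Requiring 0 UMIs of P2ry12 and Siglech as well changed the most: border macrophages became 0.30%, 0.317%, 0.516% and 0.419% of kept barcodes, the young label comparison had 284 genes past 2-fold, the chemokine medians with age were 1.46 in WT Cre and 1.06 in EC-K4KO, and 31.8% of young EC-K4KO cells were high in class II. It turned the ratios of Ccl8 (4.37) and Icam1 (-0.11) in the young label comparison, and of Cxcl13 (5.89) and Lyve1 (-0.15) in the old one. Genes past 2-fold in the young and old label comparisons and with age in WT Cre and EC-K4KO numbered 269, 335, 612 and 367 at a mean of 20 CPM and 498, 439, 865 and 530 with no filter. The chemokine median with age in WT Cre was 1.21 with TMM, 1.21 with DESeq2 size factors and 1.26 with cells weighted equally. With at least 1000 genes, 2000 UMIs and at most 5% mitochondrial UMIs it was 1.15 in EC-K4KO, Cxcl1 there turned to -3.46, and 48.7% of old WT Cre cells were high in class II. With at least 4 gate genes, Fabp5 (-1.66) and Spp1 (-0.41) turned in the young label comparison. Thinned to 2000 UMIs, 29.8% of young WT Cre and 34.2% of young EC-K4KO cells had Lyve1. Beyond these, the cause of the changes was not tested.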

Other observations

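Cells with a Lyve1 UMI after thinning to 1000 UMIs were also set against the other border macrophages of their library. Of 1410 genes at a mean of at least 100 CPM, 165 were higher and 145 lower in 4 of 4 libraries, and 1 and 12 at 2-fold or more. The 1 was Lyve1 itself. Among the 12 were 5 MHC class II genes and 7 others. Values follow in the order young WT Cre, young EC-K4KO, then the old pair likewise. Lgals3, the galactose-binding galectin-3, stood at 0, 0, 0 and 25.8 CPM in cells with Lyve1 and at 130, 228, 190 and 202 CPM in cells without it. Axl, a receptor for Gas6 that takes part in the uptake of dying cells, stood at 18, 29.3, 0 and 25.8 against 126, 96.9, 149 and 229 CPM. Ccrl2, a chemerin-binding receptor, stood at 18, 51.2, 26.9 and 0 against 140, 278, 165 and 174 CPM, and Dusp2, a phosphatase of MAP kinases, at 0, 7.32, 0 and 51.7 against 115, 101, 200 and 167. Cells with Lyve1 after thinning numbered 7, 19, 6 and 7, so each of these low values rests on few UMIs, and cells that had Lyve1 UMIs lost in thinning stand on the other side. The values describe the cells that made the split and have no test.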
